A study of Mus musculus with 2 samples.

Results

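The barcodes described here carried the transcripts of a macrophage and of a T cell at once, in droplet libraries of leukocytes from mouse AT3 tumors. A barcode is the tag shared by all RNA molecules of 1 droplet, and a UMI (unique molecular identifier) marks each captured molecule. Members were chosen by 2 sums of UMIs. A barcode had to hold at least 30 UMIs of C1qa, C1qb and C1qc together and at least 2 of Cd3d, Cd3e and Cd3g together, after barcodes outside 500 to 7500 detected genes or above 15% mitochondrial UMIs had been left out. This gave 461 C1q+Cd3+ barcodes of 6363 kept barcodes, out of 6742 in all. Of these, 165 of 3565 came from Pgd fl/fl mice (WT below, 4.63%, exact 95% interval 3.96 to 5.37) and 296 of 2798 from Pgd fl/fl LysM Cre mice (6PGDKO below, 10.6%, 9.46 to 11.8).

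AT3 is a mouse mammary tumor line that was injected into the mammary fat pad of both genotypes, and tumors were taken on day 30. Both genotypes carry loxP-flanked Pgd, the gene of 6-phosphogluconate dehydrogenase in the oxidative pentose phosphate pathway, and LysM Cre removes it in cells that use the Lyz2 promoter, which are macrophages, monocytes and neutrophils rather than T cells. Each genotype was 1 library from the pooled tumors of 10 age-matched young adult females, so the genotypes cannot be tested against each other, and all intervals below cover counting error only. Each suspension carried its own oligonucleotide tag before both were run as a mixture. The labels name both live CD45+ and live CD11b+ cells as the sorted population, and the libraries held many T and B cells. The methods of the study describe a sort of live CD45+ cells for these libraries.

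C1q is the recognition molecule of the classical complement pathway and, in tumors, is made chiefly by macrophages. The CD3 chains form the signalling complex of the T cell receptor and are made by T cells. CD8 marks cytotoxic T cells, Foxp3 is the transcription factor that defines regulatory T cells, Trdc encodes the constant region of the δ chain of γδ T cells, and Nkg7 is a granule gene of cytotoxic lymphocytes. In mm10 the C1q genes lie side by side on chromosome 4 (C1qb at 136880126 to 136886200, C1qc at 136889801 to 136892936, C1qa at 136895916 to 136898844). The Cd3 genes lie together on chromosome 9 (Cd3g at 44969572 to 44980431, Cd3d at 44981769 to 44987052, Cd3e at 44998735 to 45009663).

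The C1q+Cd3+ barcodes were set beside 3 groups of the same libraries. C1q+Cd3- barcodes met the C1q minimum and held 0 Cd3 UMIs (526 in WT, 455 in 6PGDKO). T cells held at least 2 Cd3 and at most 3 C1q UMIs (1759 and 1137). B cells held at least 2 UMIs of Cd79a, Cd79b and Ms4a1, 0 of Cd3 and at most 3 of C1q (511 and 34). The files held 27245625 UMIs in WT and 28827045 in 6PGDKO, and 0 barcodes were shared by both libraries. Neither the number of cells behind a barcode nor the way in which T cell RNA came to be in it was tested.

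Among barcodes that met the C1q minimum, Cd3 was present in a minority that was larger in the 6PGDKO library. It was 165 of 738 in WT (22.4%, 19.4 to 25.5) and 296 of 808 in 6PGDKO (36.6%, 33.3 to 40.1). The 2 intervals did not overlap, but with 1 library of each genotype the difference has no replicate check. The groups behind these shares differed too. T cells were 49.3% of kept WT barcodes and 40.6% of kept 6PGDKO barcodes, whereas barcodes that met the C1q minimum were 20.7% and 28.9%. Seen from the T cell side, the share of all barcodes with Cd3 that also met the C1q minimum was 8.23% in WT (7.06 to 9.51) and 19.1% in 6PGDKO (17.1 to 21.1). The same count was made for B cell RNA. At least 2 B cell UMIs were present in 4.74% of the barcodes that met the C1q minimum in WT (3.33 to 6.53), where B cells were 14.3% of kept barcodes, and in 2.60% in 6PGDKO (1.62 to 3.95), where B cells were 1.22%.

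Most barcodes that met the C1q minimum held 0 or 1 Cd3 UMI, and the others were spread over a wide range of Cd3 counts. In WT, 526 barcodes held 0 Cd3 UMIs, 47 held 1, 6 held 2 and 12 held 3 to 4, while 29 held 5 to 9, 65 held 10 to 19 and 53 held at least 20. In 6PGDKO the same steps held 455, 57, 8, 16, 68, 95 and 109. These steps differ in width. Per Cd3 value, the steps 2, 3 to 4, 5 to 9 and 10 to 19 held 6, 6, 5.8 and 6.5 barcodes in WT and 8, 8, 13.6 and 9.5 in 6PGDKO, so in WT the number per value was much the same from 2 to 19 UMIs. Barcodes just inside the limit, with 2 Cd3 UMIs, held a median of 72 UMIs of T cell genes in WT and 43.5 in 6PGDKO, and those just outside, with 1 Cd3 UMI, held 4 and 6. Along C1q, the 10 and 20 barcodes with Cd3 and 30 to 39 C1q UMIs held a median of 165.5 and 179.5 UMIs of macrophage genes, and the 13 and 30 barcodes with 20 to 29 held 159 and 152.5.

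**Figure D1:**
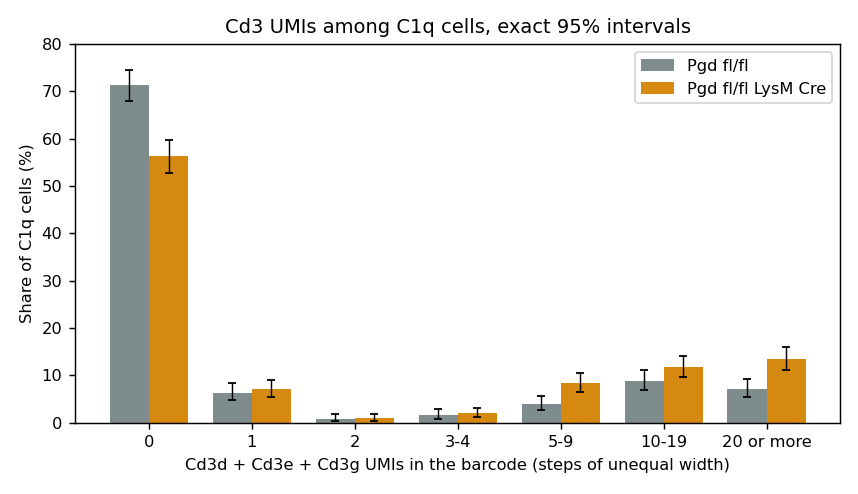
Share of barcodes meeting the C1q minimum (vertical axis, percent) by their summed Cd3d, Cd3e and Cd3g UMIs (horizontal axis), with exact 95% intervals as error bars. The steps are of unequal width, so their heights cannot be compared along the axis. The step at 0 was 71.3% in WT and 56.3% in 6PGDKO, and every other step was higher in 6PGDKO, with intervals that did not overlap at 5 to 9 and at 20 or more UMIs.

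Both kinds of RNA were near the amount found in the matching cells alone. T cell genes were the 111 genes, Cd3 left out, with at least 50 UMIs per 1000000 UMIs of the group (CPM) in T cells and at least 10 times the level of C1q+Cd3- barcodes in both libraries, and macrophage genes were the 168 genes, C1q left out, with the reverse pattern. A C1q+Cd3+ barcode held a median of 169 T cell-gene UMIs in WT (quartiles 120 and 253) and 205 in 6PGDKO (138.75 and 306). T cells held 144 and 188, so the C1q+Cd3+ medians were 117% and 109% of those. C1q+Cd3- barcodes held 3 and 5. For macrophage genes the C1q+Cd3+ barcodes held a median of 782 UMIs in WT and 806.5 in 6PGDKO, which was 91.8% and 95.8% of the 852 and 842 in C1q+Cd3- barcodes, while T cells held 6 and 9.

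Total UMIs were higher in the C1q+Cd3+ barcodes than in either kind of cell. Their median was 16251 in WT (quartiles 11528 and 20473) and 18568 in 6PGDKO (13424.2 and 25620). It was 11786 and 12328 in C1q+Cd3- barcodes and 5070 and 5847 in T cells. The ratio of the C1q+Cd3+ to the C1q+Cd3- median was 1.38 in WT and 1.51 in 6PGDKO. Genes detected came to a median of 3693 and 3959 in C1q+Cd3+ barcodes against 2868 and 3000 in C1q+Cd3- barcodes. The share of mitochondrial UMIs was 2.36% and 2.37%, against 2.19% and 2.27% in C1q+Cd3- barcodes and 2.57% and 2.41% in T cells.

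**Figure D2:**
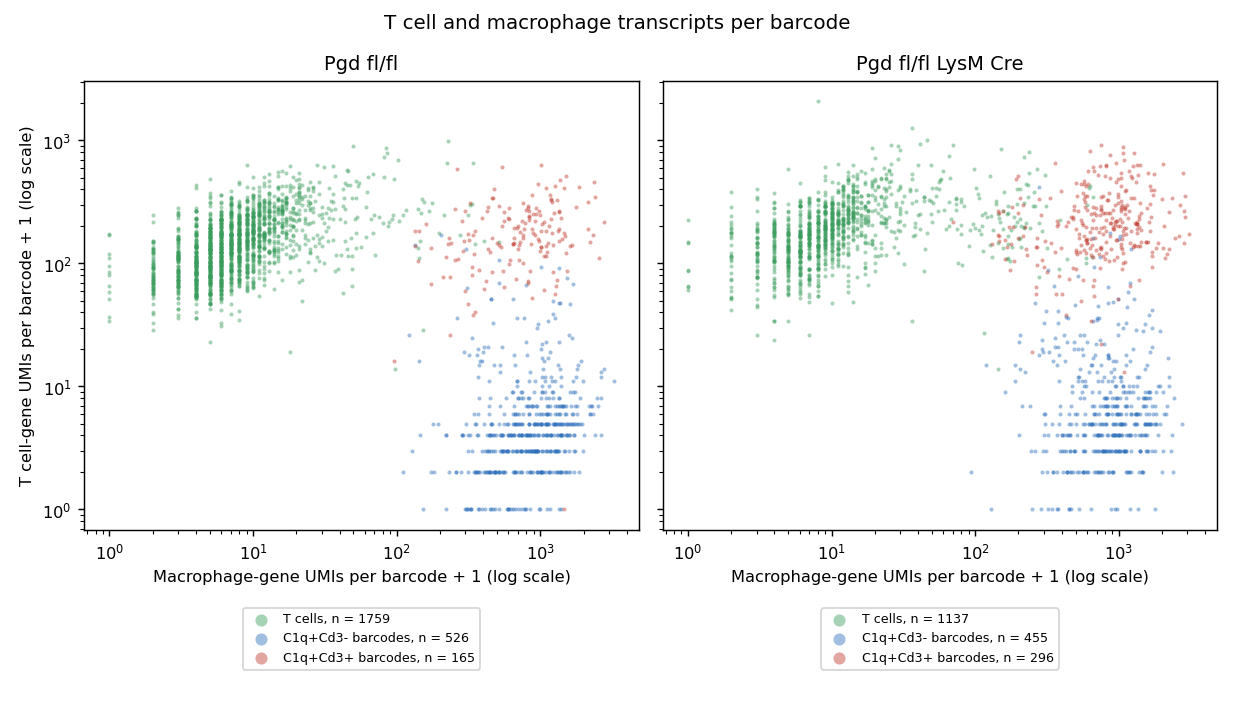
UMIs of the 168 macrophage genes (horizontal axis) and of the 111 T cell genes (vertical axis) in each barcode, 1 added, on log scales, for both libraries. The C1q+Cd3+ barcodes (red) lie at the height of the T cells (green) and in the horizontal range of the C1q+Cd3- barcodes (blue).

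The separation was not complete. Of the C1q+Cd3- barcodes, 14 of 526 in WT (2.66%) and 16 of 455 in 6PGDKO (3.52%) held 50 or more T cell-gene UMIs. Of the C1q+Cd3+ barcodes, 6 of 165 (3.64%) and 6 of 296 (2.03%) held fewer. On the other side, 26 of 1759 T cells (1.48%) and 80 of 1137 (7.04%) held 100 or more macrophage-gene UMIs although their C1q was at most 3 UMIs, and 1 C1q+Cd3+ barcode in each library held fewer than 100. The limits of 50 and 100 UMIs were set after the values had been seen.

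The share of the RNA in C1q+Cd3+ barcodes that matched a T cell was taken from each T cell gene, as its level above C1q+Cd3- barcodes over that of T cells. The median over the 111 genes was 42.8% in WT (quartiles 37.1 and 50.6) and 43.8% in 6PGDKO (38.6 and 48.1). The macrophage share, each macrophage gene's CPM over that in C1q+Cd3- barcodes, had a median over the 168 genes of 64.6% (59.998 to 69.5) and 63.5% (58.8 to 67.8). The 2 shares were estimated apart from each other and added up to 107% in each library.

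The oligonucleotide tags followed the macrophage side. The tag of the own suspension had a median of 2829 UMIs in C1q+Cd3+ barcodes of WT and 2402.5 in those of 6PGDKO. C1q+Cd3- barcodes held 2949.5 and 2544, and T cells 815 and 984. The tag of the other suspension made up a median of 3.01% of the UMIs of all 12 oligonucleotides in C1q+Cd3+ barcodes of WT and 2.41% in 6PGDKO. It did not exceed 25% in any of the 461 barcodes, while it did in 222 of 1759 WT T cells (12.6%) and in 0 of 1137 6PGDKO T cells, which allows a share of up to 0.264%. The other tag exceeded the own tag in 0 C1q+Cd3+ barcodes and 0 T cells of either library. As the suspensions were run as a mixture, these tags also told the libraries apart. A low share of the other tag thus follows in part from that split, and the origin of the T cell RNA was not tested by it.

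The lymphocyte RNA came from several T cell states, with CD8 the most frequent of CD8, Foxp3 and Trdc. A UMI of Cd8a or Cd8b1, the 2 chains of the CD8 coreceptor, was present in 80 of 165 C1q+Cd3+ barcodes in WT (48.5%, 40.6 to 56.4) and in 166 of 296 in 6PGDKO (56.1%, 50.2 to 61.8). In T cells it was present in 48.4% (46.1 to 50.8) and 50.6% (47.6 to 53.5). C1q+Cd3- barcodes, which should lack CD8, gave 5.51% and 4.62%, and B cells 2.74% and 2.94%. The C1q+Cd3+ shares lay far above those of these groups and their intervals overlapped those of T cells in both libraries. C1q+Cd3- barcodes and B cells were chosen to lack Cd3 UMIs, which leaves out barcodes with clear T cell RNA. Their low CD8 shares thus follow in part from that choice and are not an independent background level. The same limit applies to the other T cell genes set beside these groups below.

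Foxp3 was present in 39 of 165 C1q+Cd3+ barcodes in WT (23.6%, 17.4 to 30.9) and in 87 of 296 in 6PGDKO (29.4%, 24.3 to 34.9). T cells gave 19.4% (17.6 to 21.3) and 27.7% (25.1 to 30.4), and C1q+Cd3- barcodes 0.760% and 0.659%. The 6PGDKO value was above the WT value in C1q+Cd3+ barcodes and in T cells alike, with overlapping intervals in the former. Trdc was rare, in 8 of 165 (4.85%, 2.12 to 9.33) and 11 of 296 C1q+Cd3+ barcodes (3.72%, 1.87 to 6.55), beside 4.09% and 3.78% of T cells and 0.3802% and 0.220% of C1q+Cd3- barcodes.

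Genes shared by most T cells or by cytotoxic cells had a similar pattern. Trac, the constant region of the receptor's α chain, was present in 87.9% (81.9 to 92.4) and 91.6% (87.8 to 94.5) of C1q+Cd3+ barcodes, in 87.8% and 89.5% of T cells, and in 3.99% and 4.62% of C1q+Cd3- barcodes. Nkg7 was present in 65.5% (57.7 to 72.7) and 69.9% (64.4 to 75.1), against 55.8% and 63.5% of T cells and 6.46% and 5.71% of C1q+Cd3- barcodes. Ncr1, the NKp46 receptor of NK cells, was seen in 3 of 165 and 11 of 296. Variable segments of the T cell receptor β chain were seldom captured, in 12.7% and 8.45% of C1q+Cd3+ barcodes and in 13.2% and 13.8% of T cells, and in 0 of 526 and 0 of 455 C1q+Cd3- barcodes, which allows up to 0.570% and 0.659%.

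**Figure D3:**
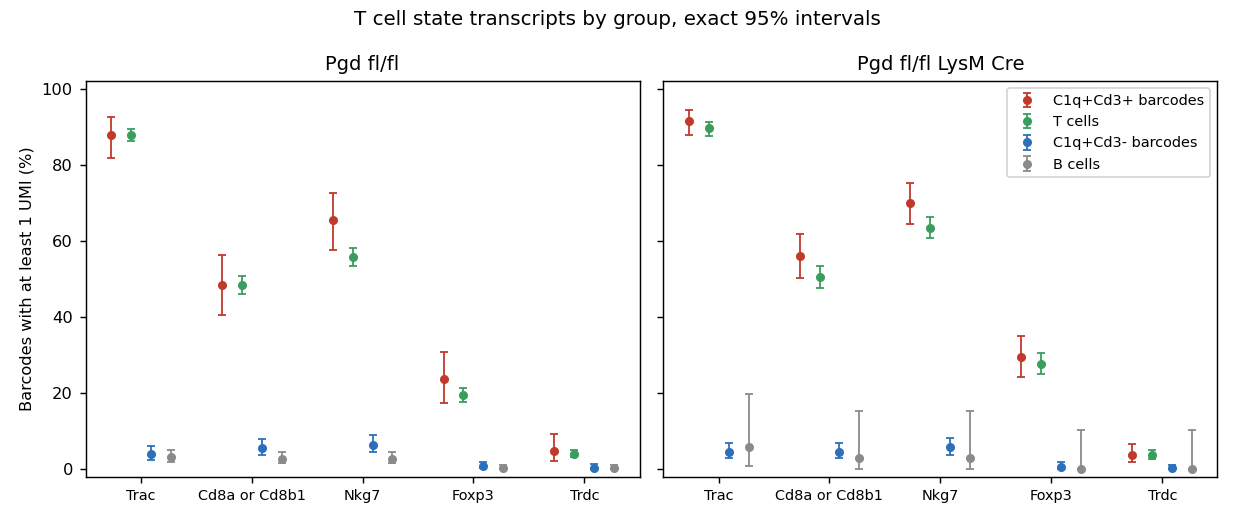
Share of barcodes with at least 1 UMI of Trac, of Cd8a or Cd8b1, of Nkg7, of Foxp3 and of Trdc (vertical axis, percent) in C1q+Cd3+ barcodes, T cells, C1q+Cd3- barcodes and B cells of each library, with exact 95% intervals. C1q+Cd3+ barcodes lie beside T cells and away from the other 2 groups. Those 2 groups were chosen to lack Cd3 UMIs, so their low shares follow in part from that choice.

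These shares depend on depth. When each barcode was reduced to 3000 UMIs (the expected share after drawing that many, with 1 shallower C1q+Cd3+ barcode left out in each library), CD8 was found in 33.4% and 36.4% of C1q+Cd3+ barcodes, Foxp3 in 10.3% and 12.5%, and Trdc in 2.61% and 1.55%. T cells gave 48.7% and 50.4% for CD8, 13.8% and 19.1% for Foxp3 and 3.23% and 3.26% for Trdc, with 234 and 160 shallower cells left out. At equal depth a C1q+Cd3+ barcode holds fewer T cell UMIs than a T cell does, so the T cell genes were also used as the yardstick. Per 1000000 UMIs of the 111 T cell genes, CD8 gave 20692 and 19693 UMIs in C1q+Cd3+ barcodes and 23119 and 23078 in T cells. Foxp3 gave 3397 and 3885 against 3238 and 3358, and Trdc 1527 and 968 against 1151 and 1136. Nkg7 gave 30135 and 26185 against 26492 and 27970. In this unit CD8 was lower than in T cells in both libraries, and Trdc and Nkg7 differed in direction between the libraries. Foxp3 was higher in 6PGDKO, with a log2 ratio of 0.21 (0.01 to 0.40), while in WT the interval included 0, with 0.07 (-0.23 to 0.36).

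Grouped by the states they held, 42.4% of C1q+Cd3+ barcodes in WT (34.8 to 50.3) and 44.9% in 6PGDKO (39.2 to 50.8) held CD8 without Foxp3 and Trdc, beside 43.9% and 43.4% of T cells. Foxp3 without CD8 and Trdc was found in 16.4% (11.1 to 22.9) and 19.3% (14.9 to 24.2), beside 16.3% and 21.6% of T cells. CD8 and Foxp3 occurred together, with or without Trdc, in 6.06% (2.94 to 10.9) and 9.46% (6.38 to 13.4), beside 2.90% (2.17 to 3.79) and 5.80% (4.52 to 7.33) of T cells. None of the 3 was found, but Cd4 was, in 32 of 165 and 39 of 296 C1q+Cd3+ barcodes, and neither the 3 nor Cd4 in 19 and 29. Barcodes with CD8 and Foxp3 in 6PGDKO were also deep, with a median of 24027.5 UMIs and 34.5 Cd3 UMIs, against 18692 and 17 where CD8 stood alone. In WT the same medians were 15338 UMIs and 20.5 Cd3 UMIs against 18063 and 19.5.

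Cd4, the coreceptor of helper and regulatory T cells, could not be assigned to the T cell side. It was present in 46.1% and 40.9% of C1q+Cd3+ barcodes, in 24.9% and 23.4% of T cells and in 13.3% and 10.1% of C1q+Cd3- barcodes. Of the C1q+Cd3+ barcodes, 13.9% in WT and 9.46% in 6PGDKO held Cd4 beside CD8 as the only one of the 3 states, whereas 2.27% and 2.29% of T cells did.

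The amount of Cd3 went with the state in WT. CD8 was present in 4 of 18 C1q+Cd3+ barcodes with 2 to 4 Cd3 UMIs (22.2%), in 6 of 29 with 5 to 9 (20.7%), in 30 of 65 with 10 to 19 (46.2%) and in 40 of 53 with at least 20 (75.5%). In 6PGDKO the same steps gave 12 of 24, 23 of 68 (33.8%), 55 of 95 (57.9%) and 76 of 109 (69.7%). Foxp3 had no such order, with 22.2%, 20.7%, 36.9% and 9.43% in WT and 12.5%, 36.8%, 25.3% and 32.1% in 6PGDKO. Cd3 is a gene by which the barcodes were chosen and also follows their depth, so these shares are a description.

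Gene by gene, the T cell part of the C1q+Cd3+ barcodes was close to that of T cells. With each gene taken per UMI of the 111 T cell genes, the median log2 ratio to T cells was 0.03 in WT (5th to 95th percentile -0.59 to 0.73) and 0.07 in 6PGDKO (-0.42 to 0.47). This scaling holds the middle of the ratios near 0, so their spread rather than the median describes how close they were. Unlike for the T cell share of RNA above, the level in C1q+Cd3- barcodes was not subtracted. The ratios of single genes can thus hold some RNA of the macrophage side. None of the 111 genes was at least 2-fold higher in both libraries (0% of genes tested) and none at least 2-fold lower (0%). The 16 genes of T cell identity on a list without Cd3 had medians of 0.03 and 0.04, the 9 measured genes of CD8 and cytotoxic cells 0.04 and -0.02, and the 8 of regulatory T cells 0.05 and 0.11.

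Smaller differences of the same sign in both libraries were seen for single genes, of which Pdcd1 and Tox are the 2 measured members of the checkpoint list. Pdcd1, the PD-1 checkpoint receptor, had 226 UMIs in C1q+Cd3+ barcodes and 1209 in T cells in WT and 614 and 1403 in 6PGDKO, a log2 ratio of 0.80 (0.58 to 1.00) and 0.55 (0.41 to 0.68). It was spread over 76 and 177 barcodes, of which the one with most Pdcd1 UMIs held 4.42% and 3.42% of them. Rora, a nuclear receptor, gave 0.74 (0.59 to 0.88) and 0.50 (0.40 to 0.59), and Il2rb, a chain of the IL-2 and IL-15 receptors, 0.51 (0.36 to 0.66) and 0.51 (0.41 to 0.61). Tox, a transcription factor of chronically stimulated T cells, gave 0.61 (0.33 to 0.88) and 0.39 (0.18 to 0.60), and Dusp4, a phosphatase of MAP kinases, 0.76 (0.47 to 1.05) and 0.47 (0.27 to 0.67). Arap2 (0.78 and 0.48), Fam102a (0.47 and 0.36), Rabgap1l (0.34 and 0.49) and Zap70, a kinase of the T cell receptor (0.36 and 0.34), completed the 10 highest with Gzma. Gzma, which encodes granzyme A, gave 0.44 and 0.95, but 5 barcodes held 93.9% of its UMIs in WT and 44.2% in 6PGDKO, and the mean ratio was -1.09 among barcodes between the quartiles of UMI totals.

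Genes lower in the T cell part included a transcription factor, a granzyme and a CD8 chain. Tcf7, the transcription factor TCF-1 of naive and stem-like T cells, had a log2 ratio of -0.88 (-1.18 to -0.58) in WT and -0.22 (-0.48 to 0.04) in 6PGDKO. Cd8b1 gave -0.24 (-0.40 to -0.09) and -0.44 (-0.57 to -0.32), although Cd8a, the other chain, gave -0.06 (-0.23 to 0.11) and -0.02 (-0.14 to 0.09). Ifitm1, an interferon-induced membrane protein, gave -0.64 (-0.82 to -0.47) and -0.83 (-0.96 to -0.69), and Klk8, a secreted serine protease, -0.65 (-0.94 to -0.38) and -0.43 (-0.64 to -0.23). Gzmb, granzyme B, gave -0.49 (-0.60 to -0.38) and -0.21 (-0.28 to -0.14). The other 5 were Ctla2a (-0.22 and -0.35), Ptprcap (-0.30 and -0.19), Trbc2 (-0.18 and -0.16), Sv2c (-0.65 and -0.17) and Calca (-2.19 and -0.19). The 15 Calca UMIs of WT lay in 3 barcodes.

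**Figure D4:**
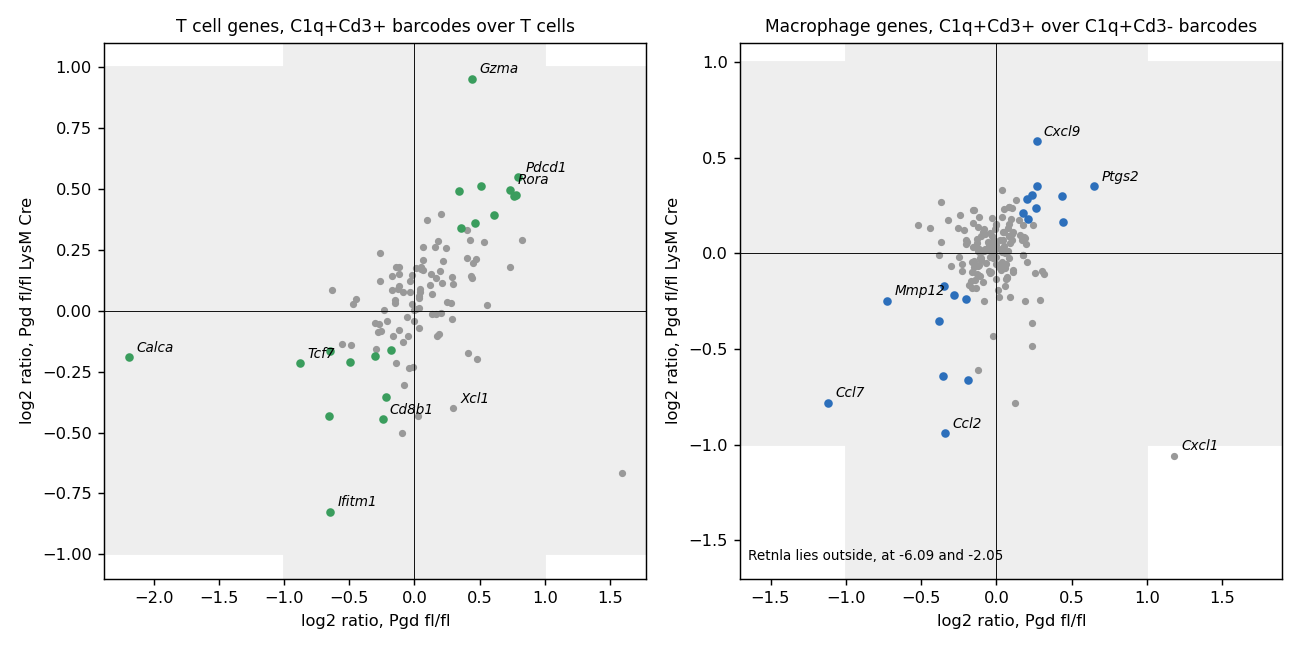
Log2 ratios of the 111 T cell genes against T cells (left) and of the 168 macrophage genes against C1q+Cd3- barcodes (right), WT on the horizontal axis and 6PGDKO on the vertical axis. Colored points are the 10 highest and 10 lowest genes with the same sign in both libraries, and the grey bands mark less than 2-fold in at least 1 library. Retnla, the gene outside the bands on the lower side, lies beyond the right panel.

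The macrophage part of the C1q+Cd3+ barcodes was close to that of C1q+Cd3- barcodes. Per UMI of the 168 macrophage genes, the median log2 ratio was -0.02 in WT (5th to 95th percentile -0.36 to 0.26) and 0.02 in 6PGDKO (-0.47 to 0.26). RNA of the T cell side was not subtracted. None of the 168 genes was at least 2-fold higher in both libraries (0%) and 1 was lower (0.595%). That gene was Retnla, a secreted marker of alternatively activated macrophages, with 3 UMIs in C1q+Cd3+ and 716 in C1q+Cd3- barcodes of WT, a log2 ratio of -6.09 (-8.37 to -4.54). In 6PGDKO the UMIs were 206 and 1317 and the log2 ratio -2.05 (-2.27 to -1.84), and 1 of the 16 C1q+Cd3+ barcodes with Retnla held 51.5% of those 206. Retnla no longer counted as past 2-fold in both libraries when depth was matched between the groups or when C1q barcodes without any T cell lineage UMI served as reference.

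Genes of macrophage identity were within 2-fold of C1q+Cd3- barcodes. The 15 measured genes of an identity list had median log2 ratios of -0.03 and -0.08. Csf1r, the receptor for the growth factor of macrophages, gave -0.03 (-0.14 to 0.08) and 0.09 (0.01 to 0.17), Adgre1, which encodes F4/80, 0.03 and 0.07, and Apoe, a lipid carrier, 0.04 and 0.01. Lower in both libraries with intervals below 0 were Cd68, a lysosomal protein (-0.14 and -0.14), Trem2, a lipid receptor (-0.18 and -0.17), Cd63, a tetraspanin (-0.13 and -0.11), and Ctsb, cathepsin B (-0.09 and -0.15), whereas Cd14, a coreceptor for lipopolysaccharide, was higher in both (0.10 and 0.18). Scaling per macrophage-gene UMI holds the middle of these ratios near 0, and Apoe alone gave 244923 and 229621 of each 1000000 macrophage-gene UMIs in C1q+Cd3+ barcodes. Mertk, a receptor for dying cells, gave 0.09 (-0.25 to 0.42) and -0.23 (-0.46 to 0.00). The 6 measured genes of the uptake of dying cells, Axl and Mertk among them, had medians of 0.09 and -0.02. Mrc1, the mannose receptor, gave -0.12 (-0.40 to 0.15) and -0.61 (-0.81 to -0.41).

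Genes of MHC class II and costimulation, which present antigen to CD4 T cells, are also used by B cells and were not among the macrophage genes. Their 12 members summed to 47069 CPM in C1q+Cd3+ barcodes of WT and 36024 CPM in those of 6PGDKO, against 68729 and 50155 CPM in C1q+Cd3- barcodes and 2416 and 6068 CPM in T cells. Scaled per UMI of the macrophage genes, these sums had log2 ratios of 0.06 and 0.19 to C1q+Cd3- barcodes. RNA of the T cell side was not subtracted from them.

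Genes higher in the macrophage part included an inflammatory enzyme and a chemokine. Ptgs2, the inducible cyclooxygenase COX-2, gave a log2 ratio of 0.65 (0.46 to 0.84) in WT and 0.35 (0.21 to 0.49) in 6PGDKO. Cxcl9, an interferon-γ-induced chemokine that attracts T cells, had 2073 UMIs in C1q+Cd3+ and 6033 in C1q+Cd3- barcodes in WT and 3766 and 3876 in 6PGDKO, a ratio of 0.27 (0.19 to 0.34) and 0.59 (0.52 to 0.65). C3, the central complement component, gave 0.44 and 0.16, Fcgr4, an IgG receptor, 0.26 and 0.24, and Dnase1l3, a secreted DNase, 0.43 and 0.30. The other 5 of the highest 10 were Ppfia4, Amz1, Fgd2, H2-M2 and Sh2d1b1, between 0.18 and 0.35. In each of the 10 the difference was well under 2-fold.

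Genes lower in the macrophage part included several chemokines. Ccl2, the ligand of CCR2, had 246 and 1091 UMIs in WT and 654 and 1940 in 6PGDKO, a log2 ratio of -0.34 (-0.55 to -0.14) and -0.94 (-1.07 to -0.81). Ccl7 gave -1.12 (-1.59 to -0.67) and -0.78 (-1.004 to -0.56), Ccl6 -0.36 (-0.64 to -0.08) and -0.64 (-0.81 to -0.48), Ccl9 -0.38 and -0.35, and Ccl12 -0.35 and -0.17. The 7 measured genes of the chemokine list had medians of -0.34 and -0.64. Of these, Ccl2, Ccl6, Ccl7 and Ccl9 were negative in both libraries, whereas Ccl8 (0.23 and -0.37), Pf4 (0.32 and -0.11) and Cxcl1 (1.18 and -1.06) were positive in WT and negative in 6PGDKO. The sum of all 13 genes of the list, which also holds the abundant Ccl3, Ccl4 and Cxcl2, had log2 ratios of 0.16 and -0.15 per macrophage-gene UMI. T cells also held these genes, at 738 CPM in WT and 1097 CPM in 6PGDKO. RNA of the T cell side was not subtracted from the sum, so it does not describe the macrophage part alone. Mmp12, the macrophage elastase, gave -0.72 (-0.89 to -0.56) and -0.25 (-0.35 to -0.14). Gdf15, Fcrls and Igf1, a growth factor, lay between -0.19 and -0.66.

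The C1q+Cd3+ barcodes were close to a weighted sum of the T cell and C1q+Cd3- profiles over all genes. With weights of 39.9% T cell and 60.1% macrophage in WT and 40.8% and 59.2% in 6PGDKO, taken from the shares above after rescaling, the median log2 ratio over 8660 genes was 0.06 (5th to 95th percentile -0.37 to 0.50) and 0.02 (-0.32 to 0.34). The weights were fitted to these same barcodes, so a median near 0 follows in part from the fit. Within 2-fold of the sum were 99.04% of genes in WT and 99.6% in 6PGDKO. No share of genes within 2-fold of either profile alone was set beside these values. Only 5 genes were at least 2-fold above it in both libraries (0.0577%) and 13 at least 2-fold below (0.15%).

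The 5 genes above the sum were nearly absent from C1q+Cd3- barcodes and about as high in C1q+Cd3+ barcodes as in T cells, or higher. Lgals7, which encodes galectin-7, was at 50.4 and 29.4 CPM in C1q+Cd3+ barcodes, 37.4 and 26.6 CPM in T cells and 1.27 and 0.520 CPM in C1q+Cd3- barcodes, so that its log2 ratio to the sum was 1.69 and 1.40. Nrn1, which encodes neuritin, a surface protein of regulatory and chronically stimulated T cells, was at 10.96 and 14.5 CPM against 10.0 and 16.7 CPM in T cells, and its log2 ratio to the sum was 1.46 and 1.08. Dusp14, a phosphatase that restrains T cell receptor signalling, was at 14.3 and 21.7 CPM against 14.2 and 22.3 CPM, and its log2 ratio was 1.24 and 1.14. Gm156 gave log2 ratios of 2.88 and 1.21 and Ccdc184 2.02 and 1.11. Each of the 5 was seen in 11 to 45 barcodes a library, and the top barcode held between 10.4% (Gm156 in 6PGDKO) and 37.7% (Lgals7 in WT) of its UMIs.

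Among the 13 genes below the sum were genes of other cells. Krt18, an epithelial keratin, gave -1.41 and -3.05, and Mgp and Igfbp5, genes of stromal cells, -3.25 and -4.48, and -1.80 and -4.03. Ccl17, a dendritic cell chemokine, gave -1.42 and -1.28. Retnla (-5.99 and -1.99) and Fn1, fibronectin (-1.81 and -1.34), were on the macrophage side, and Gzmc, granzyme C (-2.51 and -1.06), on the T cell side. The others were Slpi, Tm4sf1, Nfib, Fxyd3, Tdrp and Lyz1. Of the naive T cell genes Dapl1 gave -1.77 and -0.69 and Lef1 -1.04 and -0.17, neither of them past 2-fold in both libraries.

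Whether the T cell state went with the macrophage part was asked by comparing C1q+Cd3+ barcodes with CD8 alone (70 in WT, 133 in 6PGDKO) and with Foxp3 alone (27 and 57). The median log2 ratio over 167 macrophage genes was -0.05 and 0.12, and none was at least 2-fold higher (0%) or lower (0%) in both libraries. The furthest from 0 with the same sign in both, named after their values had been seen, were Ccl2 at -0.81 (-1.35 to -0.25) and -0.99 (-1.27 to -0.71), Il1a, a cytokine of the interleukin-1 family, at -0.59 (-1.04 to -0.11) and -0.58 (-0.92 to -0.24), and Mmp2, a matrix metalloproteinase, at 0.65 (-0.16 to 1.56) and 0.55 (0.10 to 1.02). Negative values are lower in the barcodes with CD8.

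The targeted gene was lower in the C1q+Cd3+ barcodes of 6PGDKO. Pgd (chromosome 4, 149149991 to 149166705 in mm10) had 230 UMIs in WT and 191 in 6PGDKO, that is 84.1 and 32.1 CPM, a log2 ratio of -1.39 (-1.67 to -1.11). It was found in 64.2% of the WT and 40.9% of the 6PGDKO barcodes. In C1q+Cd3- barcodes it was at 105.8 and 29.5 CPM, a log2 ratio of -1.84 (-2.10 to -1.599), and in T cells at 27.5 and 30.9 CPM, a ratio of 0.17 (-0.07 to 0.41). The C1q+Cd3+ barcodes were thus below C1q+Cd3- barcodes in WT, with a log2 ratio of -0.33 (-0.55 to -0.11), while in 6PGDKO the interval included 0, with 0.12 (-0.18 to 0.43). Of the 8 genes of the pentose phosphate pathway, Pgd was the one past 2-fold between the genotypes in C1q+Cd3+ barcodes. G6pdx, the first enzyme of the pathway, was at 21.2 and 26.6 CPM, Pgls at 143 and 170 CPM, Tkt, transketolase, at 179 and 229 CPM and Taldo1, transaldolase, at 307 and 366 CPM.

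**Figure D5:**
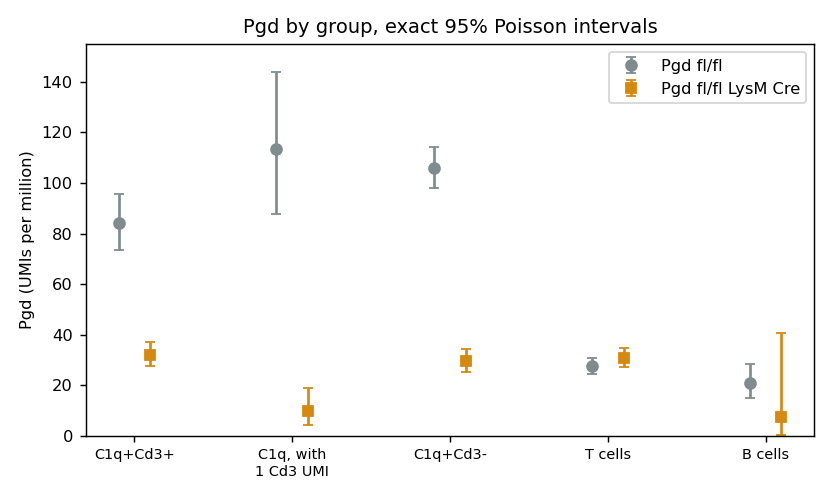
Pgd level (vertical axis, CPM) in C1q+Cd3+ barcodes, barcodes with C1q and 1 Cd3 UMI, C1q+Cd3- barcodes, T cells and B cells of both libraries, with exact 95% Poisson intervals. Pgd was at 84.1 CPM in C1q+Cd3+ barcodes of WT and 32.1 CPM in those of 6PGDKO. C1q+Cd3- barcodes were at 105.8 and 29.5 CPM and T cells at 27.5 and 30.9 CPM.

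Lyz2, whose locus carries Cre in LysM Cre mice, was at 2199 CPM in C1q+Cd3+ barcodes of WT and at 35.5 CPM in those of 6PGDKO, a log2 ratio of -5.95 (-6.16 to -5.76). It was at 3312 and 11.8 CPM in C1q+Cd3- barcodes. Of the 211 Lyz2 UMIs in the 6PGDKO barcodes, 61.1% lay in 1 barcode, and without the top barcode of each library the ratio was -7.22.

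Apart from Lyz2 and Pgd, most genes in the C1q+Cd3+ barcodes were at similar levels in both genotypes. Over 10809 genes with at least 20 UMIs, 259 were at least 2-fold higher in 6PGDKO (2.4%) and 135 at least 2-fold lower (1.25%), with no replicate check. Of the 111 T cell genes 1 was higher, Calca, and 0 lower. Of the 168 macrophage genes 4 were higher and 2 lower. T cell identity (0 of 16), CD8 and cytotoxic genes (0 of 15), checkpoint genes (0 of 8), MHC class II and costimulation (0 of 12), interferon-induced genes (0 of 13) and the cell cycle (0 of 10) held no gene past 2-fold in either direction. The cell cycle genes had a median log2 ratio of 0.53, from Hist1h1b at 0.99 down to Ccnb2 at 0.24 and with Mki67 at 0.57, beside 0.03 over all genes.

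The macrophage genes past 2-fold included 3 chemokines. Ccl7 was at 16.8 CPM in WT and 39.5 CPM in 6PGDKO, a log2 ratio of 1.23 (0.77 to 1.72), Fcrls at 32.2 and 71.3 CPM (1.15), and Gdf15, a stress-induced cytokine, at 57.7 and 118 CPM (1.03). Each was also higher in the 6PGDKO C1q+Cd3- barcodes, with 0.96, 1.25 and 1.57. Retnla was the 4th. Ccl8, another ligand of monocyte receptors, was lower, at 118 and 49.4 CPM (-1.26, -1.49 to -1.02), beside -0.59 in C1q+Cd3- barcodes. Cxcl1, a neutrophil attractant, was at 99.4 and 17.8 CPM (-2.48, -2.82 to -2.15), beside -0.18 in C1q+Cd3- barcodes, and 5 of the 31 WT barcodes that had it held 65.8% of its UMIs.

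Other listed genes past 2-fold were low or lay in few barcodes. Of 12 genes for the uptake of dying cells 2 were higher, Gas6, a bridge between dying cells and their receptors, at 7.67 and 19.5 CPM (1.34, 0.67 to 2.09), and Mfge8, at 22.7 and 48.1 CPM, with 39.5% of the 6PGDKO UMIs in 1 barcode. Of 11 markers of macrophage subsets Nos2 (0.731 and 7.90 CPM) and Chil3 (1.096 and 12.4 CPM) were higher, and Arg1 (25.6 and 7.90 CPM) lower, with 68.6% of the WT Arg1 UMIs in 1 barcode and a log2 ratio of -0.41 without the top barcode of each library. Of 13 regulatory T cell genes Klrg1 was higher, of 6 γδ T cell genes Trgv2 was higher, and of 6 helper genes Cd40lg was lower.

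Markers of further cell types were present in these barcodes at low summed levels, and their part in the results was not tested. Of the genes named here and in the paragraph before, Ccl22, Fscn1, S100a8, Mfge8 and Klrg1 turned direction among barcodes between the quartiles of UMI totals. Of 9 dendritic cell genes 4 were higher in 6PGDKO (Ccl17, Fscn1, Ccl22 and Flt3), and the list of 10 summed to 316 and 360 CPM. Of 8 B cell genes 3 were lower (Cd79a, Cd79b and Ms4a1), where the list of 10 summed to 215 and 123 CPM and 8 of 165 and 10 of 296 barcodes held 2 or more B cell UMIs. Of 4 neutrophil genes 3 were higher (S100a8, S100a9 and Retnlg), the list of 8 summed to 25.6 and 116 CPM, and Ly6g and Camp were at 0 in both libraries. In 6PGDKO the top barcode of each gene held 96.3% of the S100a8, 97.5% of the S100a9 and 91.4% of the Retnlg UMIs. Over all 10809 genes 2.4% were higher and 1.25% lower. Of 4 epithelial genes Krt14 was higher, with 74.2% of its 271 UMIs in 1 barcode, while Krt8 was at 0 and 0.168 CPM.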

How the data were processed

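The authors deposited, for each of the 2 libraries, UMI counts per gene and barcode as whole numbers, made with Cell Ranger 6.1.2 on mm10 per the submitters' processing notes, before the cell filters of the study, together with counts of 12 multiplexing oligonucleotides. The filters of the study's methods (500 to 7500 genes, at most 15% mitochondrial UMIs) were applied here and left more barcodes than the methods state for either genotype. No doublet caller was run.

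Counts were summed per group and library and scaled to 1000000 UMIs (CPM). Shares carry Clopper-Pearson and ratios exact conditional 95% intervals, which treat UMIs as independent and are too narrow for genes held by few barcodes. With 1 library per genotype no test was made. A gene was called past 2-fold with at least 20 UMIs, in both libraries where these were compared with each other group, and for ratios against 0 a floor of 3 counts per library was used. Genes were named as the 10 highest and 10 lowest in each part by the log2 ratio nearer 0 (same sign in both libraries, at least 50 UMIs), or from gene lists (at least 20 UMIs). The members and lists were chosen with earlier results of these data known. The weighted sum, the comparison of barcodes with CD8 and with Foxp3, the oligonucleotide tags, the β chain segments, the B cell counts and the concentration of UMIs in few barcodes were added after the values had been seen. Positions came from RefSeq for GRCm38.p6, the build of mm10. Scripts ran in Python 3.11.15 (numpy 2.4.6, scipy 1.17.1, pandas 2.3.3) and were tested on simulated data. Alternatives were other Cd3, C1q and mitochondrial limits, matched depth, stricter reference groups, another gene definition and thinning.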

Additional observations from a re-analysis of the deposited data

Results flagged for a closer look

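Several genes differed in opposite directions in the 2 libraries, or between C1q+Cd3+ and C1q+Cd3- barcodes. None of these differences was tested, since each genotype was 1 library, and most of the genes lay in few barcodes. In the T cell part, Ccl1, a T cell chemokine, had a log2 ratio to T cells of 1.59 in WT and -0.67 in 6PGDKO, and 5 barcodes held 80.3% and 59.4% of its UMIs. Xcl1, a chemokine of CD8 and NK cells, gave 0.30 and -0.40, with 49.7% and 24.7% of its UMIs in 5 barcodes.

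In the macrophage part, Cxcl1 had a log2 ratio to C1q+Cd3- barcodes of 1.18 in WT and -1.06 in 6PGDKO. Cd180, a Toll-like receptor homolog, gave -0.37 and 0.27 and was spread over 59 and 130 C1q+Cd3+ barcodes.

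Between the genotypes, the neutrophil gene S100a9 was higher in C1q+Cd3+ barcodes of 6PGDKO (log2 ratio 6.03) and lower in C1q+Cd3- barcodes (-3.74). In the C1q+Cd3+ barcodes 97.5% of its 284 UMIs lay in 1 barcode, and in the WT C1q+Cd3- barcodes 68.6% of its 204 UMIs did. S100a8 gave 5.05 and -2.41, with 96.3% of its 216 UMIs in 1 barcode. Without the top barcode of each library the ratios in C1q+Cd3+ barcodes were 1.68 for S100a9 and 0.87 for S100a8. Fscn1, an actin-bundling gene of mature dendritic cells, gave 2.76 and -4.11, with 90.1% of its 162 UMIs in 5 C1q+Cd3+ barcodes. Flt3, a receptor of dendritic cell precursors, gave 1.40 and -1.20 on 23 and 4 UMIs in C1q+Cd3+ barcodes.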

How the results depend on the processing

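Of 114 recomputed values of the main results, 84 moved by less than counting error or stayed within 1.5 times, 30 moved and 0 reversed. Only the Pgd ratio between the genotypes could reverse, since the other main results are shares, counts and ratios of medians, which have no sign. A limit of 10% mitochondrial UMIs moved none of them. With at least 5 Cd3 UMIs the macrophage share was 63.9% in WT and 62.6% in 6PGDKO, and the T cell share 45.1% in 6PGDKO. With at least 60 C1q UMIs the T cell share was 41.3% and 41.8% and the macrophage share 66.1% and 66.2%. With C1q+Cd3+ and C1q+Cd3- barcodes limited to UMI totals between the quartiles of the former, the ratio of median UMIs was 1.14 and 1.13, the T cell share 39.97% and 41.4%, the macrophage share 65.2% and 71.2%, and 0 macrophage genes were past 2-fold on the lower side. Against C1q barcodes without any T cell lineage UMI the macrophage share was 63.9% in WT, the ratio of median UMIs 1.62 in 6PGDKO, and 0 macrophage genes were lower. With T cells of under 30 C1q UMIs the T cell share was 43.6% and 45.7% and the macrophage share 64.1% and 62.4%. With genes of a 5-fold difference the macrophage share was 67.2% and 65.2%, the T cell share 44.4% in 6PGDKO, and 1 gene of the T cell part was lower. Thinning to 3000 UMIs gave CD8 in 33.4% and 36.4%, Foxp3 in 10.3% and 12.5%, and Trdc in 1.55% of the 6PGDKO barcodes, since fewer UMIs were read. Of 408 recomputed values of single genes, 33 moved and 6 reversed, all 6 between the quartiles, where the mean log2 ratio of Gzma was -1.09 in the T cell part and the 6PGDKO to WT log2 ratio was -0.48 for S100a8, -1.75 for Fscn1, -0.13 for Mfge8, -0.22 for Klrg1 and -0.81 for Ccl22. Apart from thinning, the cause was not tested. Leaving out the barcode with most UMIs of a gene was chosen after seeing the data. No paired analysis was possible because each genotype was 1 library.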
